A study of Mus musculus with 4 samples.

Results

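The BCL-2 family genes examined here were measured in 4T1, a metastatic line derived from a mouse mammary tumor, after its cells had been sorted by mitochondrial membrane potential (MMP). The family was defined as 10 genes chosen by name, of which 9 were analysed among the 20197 genes of the table: the pro-survival genes *Bcl2*, *Bcl2l1* and *Mcl1*, the effector genes *Bax* and *Bak1*, and the BH3-only genes *Bid*, *Bad*, *Bcl2l11* and *Bbc3*. *Pmaip1* was not analysed here. The cells, labelled as wild type (WT) in genotype, were stained with 20 nM MitoSpy Red, a dye that accumulates in mitochondria of high membrane potential, and the brightest 5% (high MMP, 2 samples) and the dimmest 5% (low MMP, 2 samples) were collected. RNA from 100000 cells per sample entered a stranded mRNA library preparation. Both groups thus share the cell line, the culture, the stain and the sort, and they are the extremes of 1 cultured line. The labels do not say that replicates came from separate cultures, and although the study counts its RNA samples as independent experiments or tumors it does not tie the sample numbers to them, so p-values measure only the spread between these samples, which may be technical.

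BCL-2 family proteins decide at the mitochondrial outer membrane whether a cell undergoes the intrinsic pathway of apoptosis. The effectors BAX and BAK oligomerize and permeabilize that membrane, which releases cytochrome c. Pro-survival members hold the effectors in check, and BH3-only members, so named for the single short helix they share with the rest of the family, either block the pro-survival proteins or activate the effectors directly. Much of this control acts on the proteins, through phosphorylation, cleavage and turnover, and is not read out by mRNA levels.

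Values are given as normalized reads, for which each library had been scaled to a total of 20000000, and each difference is that of high from low MMP cells in log2(value + 1), positive where high MMP was higher. The libraries held 22591970 to 26395015 reads, and each of the 9 genes had between 201 and 4936 reads in every library. The labelled cell type was checked against marker genes. All 8 epithelial markers were detected at 10 normalized reads or more in every library, with summed levels of 54397 to 72414 normalized reads. The 4 leukocyte markers analysed summed to 313 to 343, carried by *Cd74* and *Cd68*, while the defining marker *Ptprc* had at most 2 reads, and the 2 endothelial markers summed to 1.74 to 6.20, with at most 7 reads of *Pecam1* and 3 of *Cdh5*. Both *Ptprc* and *Cdh5* were at 0 in low MMP replicate 1. The 3 fibroblast markers summed to 334 and 374 in high and to 548 and 604 in low MMP libraries, nearly all of it *Pdgfra*, and *Dcn* had 2 to 12 reads. The part of *Pdgfra*-expressing cells in the results was not tested. Immediate-early genes set the libraries apart in a way that the groups do not: *Fosb*, an AP-1 subunit, had 4855 normalized reads in high MMP replicate 1 and 5063 in low MMP replicate 2, but 601 in high MMP replicate 2 and 389 in low MMP replicate 1.

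To compare members with each other, values were divided by exon length and library total (RPKM). *Mcl1*, a pro-survival gene whose protein turns over quickly, had the highest level, at an RPKM of 56.7 ± 3.52 (SD, n = 4 libraries), followed by the effector *Bak1* at 42.6 ± 4.18 and its partner *Bax* at 23.7 ± 1.13. These 3 genes did not overlap with each other or with the next in any library. *Bcl2l1*, which encodes BCL-XL, and *Bid*, whose protein links death receptors to mitochondria once it is cleaved, stood at 17.2 ± 1.06 and 16.8 ± 0.75 and overlapped. *Bcl2l11*, which encodes BIM, had 9.17 ± 1.89 and overlapped with *Bad*, a BH3-only gene controlled by survival signaling, at 7.64 ± 0.86. The lowest levels were those of *Bcl2* (4.51 ± 0.41) and *Bbc3*, which encodes PUMA (4.48 ± 0.68), and these overlapped as well. The order was the same when the longest annotated transcript was used in place of all exons.

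**Figure D1:**
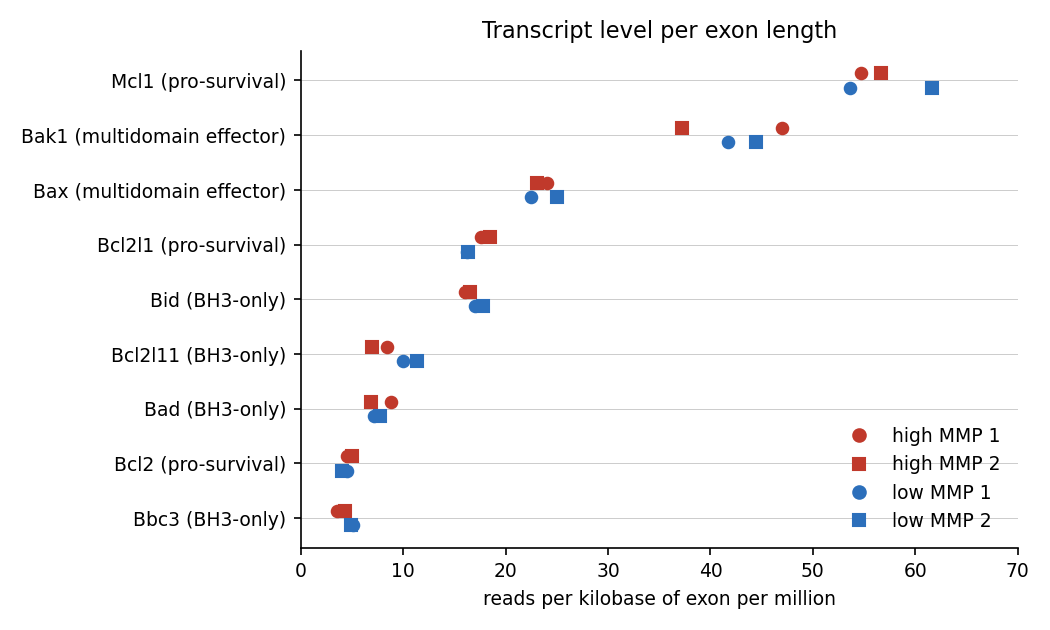
Level of each of the 9 genes in RPKM, that is, reads per library total and exon length (horizontal axis, linear), with 1 point per library; red points are high MMP and blue points low MMP cells, circles replicate 1 and squares replicate 2. *Mcl1* and *Bak1* lie above all others, and *Bcl2* and *Bbc3* share the lowest position.

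The question put to the family was whether its transcripts differ between cells of high and low MMP. Of the pro-survival genes, *Bcl2* and *Bcl2l1* were slightly higher in both high MMP libraries, whereas the groups overlapped for *Mcl1*, the most abundant of them. The effectors *Bax* and *Bak1* overlapped as well. Of the BH3-only genes, *Bcl2l11*, *Bbc3* and *Bid* were lower in both high MMP libraries, and *Bad* overlapped. *Bcl2l11* had the largest difference, being 27.8% lower in high than in low MMP cells, and *Bbc3* was 21.1% lower. None of the 9 genes passed an adjusted p of 0.05 in limma, nor did any other, so that 0 of all 20197 genes (0%) were called. At an unadjusted p under 0.05, 1 of the 9 genes was lower in high MMP cells (*Bcl2l11*) and 0 were higher, against 6.01% and 3.95% of all genes, or 9.96% in either direction. On the whole reads that can be recovered from the values, edgeR with no block called 0 of the 9 genes, as it did of all genes (0%). DESeq2 also called 0 of the 9, against 0.985% of all genes it tested, and edgeR with the replicate number as a block called 0, against 0.525%. With the numbers crossed, a block chosen after the data were seen, edgeR called 1 of the 9, *Bcl2l11*, against 3.63%. The groups did not overlap for 5 of the 9 genes, 2 with high MMP above and 3 with high MMP below. Over all genes the groups did not overlap for 37.9%, with high MMP above for 13.5% and below for 24.5%. Among the 9999 genes averaging 100 or more normalized reads, to which all 9 belong, these shares were 37.6%, 14.9% and 22.7%. A lower level in a sorted population can reflect fewer expressing cells or less RNA per cell, which bulk samples cannot tell apart.

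**Figure D2:**
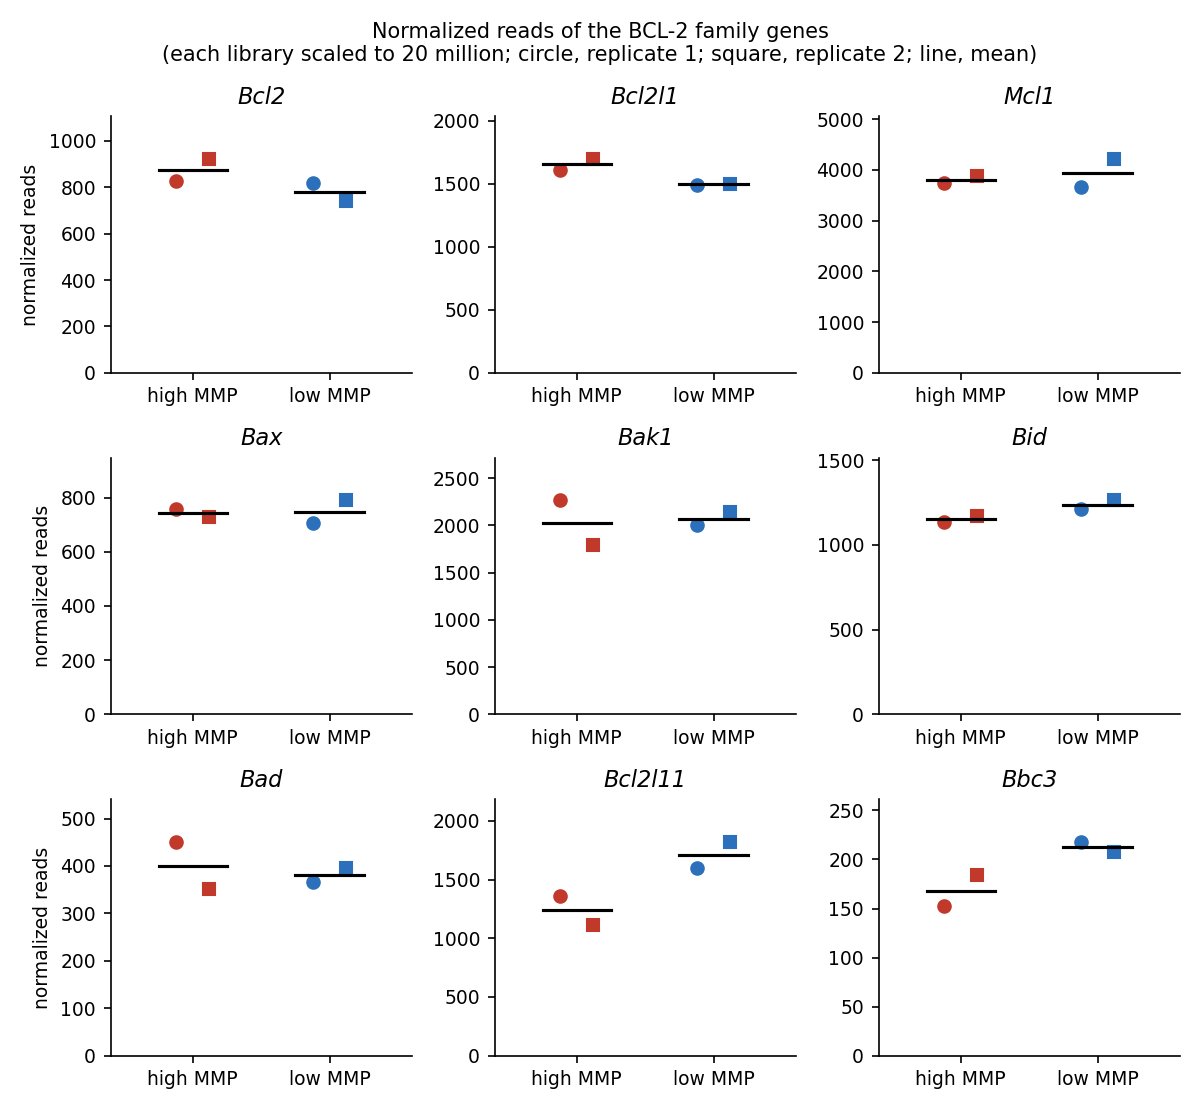
Normalized reads of each gene (vertical axes, linear from 0, scaled to each gene) in the high MMP (red) and low MMP (blue) libraries; circles are replicate 1, squares replicate 2 and lines the mean of 2. *Bcl2l11*, *Bbc3* and *Bid* lie lower in both high MMP libraries, *Bcl2* and *Bcl2l1* higher, and the other 4 genes overlap.

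Among the BH3-only genes, *Bcl2l11* (ENSMUSG00000027381, GRCm38 chromosome 2, 128126038 to 128162547) encodes BIM, which binds all pro-survival members and can activate BAX and BAK. It had 1357 and 1116 normalized reads in high MMP replicates 1 and 2, and 1598 and 1821 in low MMP replicates 1 and 2. Every high MMP library was below every low MMP library. The mean was 1237 ± 170 in the high and 1709 ± 158 in the low MMP group (SD, n = 2), which differed by -0.47 (SE 0.14, 95% interval -0.84 to -0.10, adjusted p = 0.472 in limma). *Bcl2l11* shared that adjusted p, the smallest of any gene, with many genes, among them *Casp2* and *E2f1*. Its unadjusted p was 0.0240 in limma, but 0.109 without high MMP replicate 2, 0.0747 without low MMP replicate 1, 0.161 without low MMP replicate 2 and 0.0509 with the replicate block. Of those 9999 genes averaging 100 or more, 2.15% had a lower difference. The size of the difference varied with the libraries compared, from -0.24 for high MMP 1 against low MMP 1 to -0.71 for high MMP 2 against low MMP 2.

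*Bbc3* (ENSMUSG00000002083, chromosome 7, 16308393 to 16318205) encodes PUMA, a potent killer best known as a p53 target. It had 152 and 184 normalized reads in the high MMP replicates and 218 and 207 in the low MMP replicates, on 201 to 250 reads per library. The groups did not overlap, but the gap between the nearest libraries, 184 and 207, was smaller than that between the high MMP replicates. Its difference was -0.34 (SE 0.14, 95% interval -0.73 to 0.05, adjusted p = 0.567 in limma).

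*Bid* (ENSMUSG00000004446, chromosome 6, 120891930 to 120916853) had 1138 and 1173 normalized reads in the high and 1211 and 1262 in the low MMP replicates. The groups did not overlap, though the difference was only -0.10 (SE 0.08, 95% interval -0.30 to 0.11, adjusted p = 0.783 in limma). *Bid* shares 628 exon bases with *Bcl2l13* on the opposite strand, and how the counting used strand is not given in the sources used here. *Bad* (ENSMUSG00000024959, chromosome 19, 6941861 to 6951899), which acts on BCL-2 and BCL-XL when it is not phosphorylated, had 451 and 351 normalized reads in high and 367 and 396 in low MMP cells. The high MMP replicates lay on either side of the low ones, with a difference of 0.06 (SE 0.16, 95% interval -0.36 to 0.48). *Bad* likewise shares 524 exon bases with *Gpr137* on the opposite strand.

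The pro-survival genes differed less. *Bcl2l1* (ENSMUSG00000007659, chromosome 2, 152780668 to 152831728) had 1612 and 1696 normalized reads in high and 1492 and 1501 in low MMP cells. Both high MMP libraries were above both low MMP libraries, which were almost equal. The difference was 0.14 (SE 0.08, 95% interval -0.06 to 0.35, adjusted p = 0.664 in limma). *Bcl2* (ENSMUSG00000057329, chromosome 1, 106538178 to 106714274), the founding member of the family, had 826 and 921 in high and 819 and 740 in low MMP cells. The nearest libraries, high MMP 1 and low MMP 1, were almost level, and the difference was 0.16 (SE 0.10, 95% interval -0.12 to 0.45, adjusted p = 0.722 in limma). *Mcl1* (ENSMUSG00000038612, chromosome 3, 95658788 to 95663176) had 3740 and 3872 in high and 3668 and 4211 in low MMP cells. The low MMP replicates enclosed the high ones, with a difference of -0.05 (SE 0.10, 95% interval -0.33 to 0.23).

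For the effectors the groups overlapped. *Bax* (ENSMUSG00000003873, chromosome 7, 45461697 to 45466898) had 758 and 728 normalized reads in high and 708 and 790 in low MMP cells, which differed by -0.01 (SE 0.09, 95% interval -0.27 to 0.25). Its sign changed with the scaling, to 0.03 after median-of-ratios rescaling. *Bak1* (ENSMUSG00000057789, chromosome 17, 27019810 to 27029009) had 2264 and 1792 in high and 2007 and 2138 in low MMP cells, which differed by -0.04 (SE 0.14, 95% interval -0.42 to 0.34), and the high MMP replicates lay farthest apart. Its sign also changed with that rescaling, to 0.0013. The intervals of *Bax* and *Mcl1* exclude differences beyond 0.33 in either direction on the log2 scale, whereas those of *Bak1* and *Bad* leave room for up to 0.48. *Bak1* shares 437 exon bases with *Ggnbp1* and *Bcl2* 558 with *D630008O14Rik*, both on the opposite strand, and *Bax* 192 with *Gm45808* on its own strand.

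**Figure D3:**
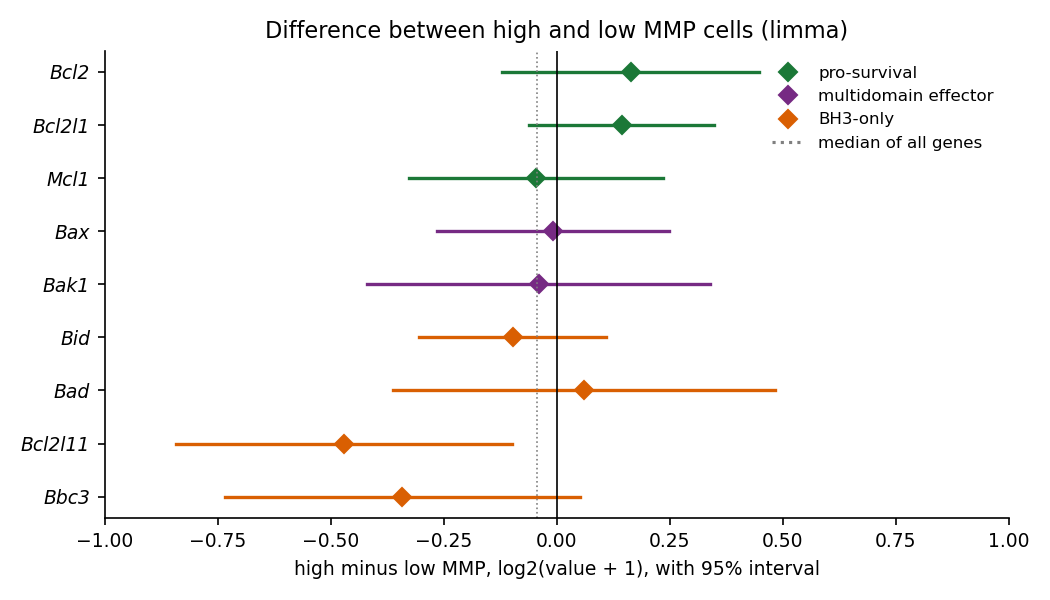
High minus low MMP difference of each gene on the log2(value + 1) scale (diamonds) with its 95% interval from limma (lines), colored by role; the dotted line is the median of all genes, -0.04. Only the interval of *Bcl2l11* lies on 1 side of 0.

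Promoter windows of *Bcl2l11* and *Bbc3*, the genes that stood farthest apart, are shown because both held a FOXO motif. That choice was made after the search. RefSeq promoter windows on GRCm38.p6 were available for all 9 genes (15 start sites), and the 250 bases before each start were searched on both strands. The letters searched were TGTTTAC for FOXO factors, TTTCCCGC, TTTCGCGC, TTTGGCGC and TTTGCCGC for E2F factors, and TGACTCA and TGAGTCA for AP-1. No window held both FOXO and E2F letters. The FOXO letters were found in 2 of the 15 windows, 1 of *Bcl2l11* and 1 of *Bbc3*, against 3.17% of 32851 windows of all genes. Both are printed 5′ to 3′ on the gene's strand, with the match in capitals, and this *Bbc3* start, whose window partly overlaps that of another *Bbc3* start, lies 194 bases from the nearest start in GENCODE.
Bcl2l11 (chr2:128125788-128126037, plus strand): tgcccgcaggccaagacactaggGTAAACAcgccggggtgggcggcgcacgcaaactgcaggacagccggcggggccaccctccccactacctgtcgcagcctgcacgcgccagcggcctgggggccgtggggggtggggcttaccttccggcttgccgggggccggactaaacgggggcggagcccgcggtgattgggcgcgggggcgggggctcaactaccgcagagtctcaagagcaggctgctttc
Bbc3 (chr7:16310011-16310260, plus strand): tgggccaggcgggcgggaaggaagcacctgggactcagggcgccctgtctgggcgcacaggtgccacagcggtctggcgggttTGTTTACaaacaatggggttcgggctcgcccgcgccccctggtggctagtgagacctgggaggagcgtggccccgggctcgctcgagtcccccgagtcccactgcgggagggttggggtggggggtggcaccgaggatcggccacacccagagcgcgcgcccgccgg
The E2F letters were found in 1 of the 15 windows, that of a *Bcl2l1* start (1.86% of all windows), which is shown for contrast with the match in capitals on the same terms.
Bcl2l1 (chr2:152830718-152830967, minus strand): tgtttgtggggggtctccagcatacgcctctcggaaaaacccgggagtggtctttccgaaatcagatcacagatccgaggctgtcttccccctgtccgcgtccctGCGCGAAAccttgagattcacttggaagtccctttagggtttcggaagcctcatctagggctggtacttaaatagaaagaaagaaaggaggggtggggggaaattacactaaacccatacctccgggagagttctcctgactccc
AP-1 letters were in none of the 15 windows, against 4.46% of all windows. The GC box letters GGGCGG were in 10 of the 15 windows, from 7 of the 9 genes, against 32.7% of all windows, and TATAAA was in 0, against 12.4%. The letters CCAAT were in windows of *Bad*, *Bcl2l11* and *Bbc3*, and in 33.8% of all windows. *Bcl2l11* and *Bbc3* thus shared GC box and CCAAT letters as well, but so did *Bad*, whose groups overlapped. These letters are not particular to the genes that were lower. A match of letters is a description of sequence and does not show that a factor binds there. *Foxo3* and *Foxo1*, factors known to act on *Bcl2l11* and *Bbc3*, had overlapping groups: *Foxo3* had 547 and 792 normalized reads in high and 788 and 596 in low MMP cells, and *Foxo1* had 571 and 799 in high and 765 and 608 in low. The activity of these factors was not measured, and their part in the differences of *Bcl2l11* and *Bbc3* was not tested.

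The balance between roles was then described from the summed level per length of the 9 genes. BH3-only transcripts made up 20.0% and 19.8% of this sum in the high MMP replicates and 22.1% and 21.6% in the low MMP replicates, so the groups did not overlap. This share is built from the single genes above and is no separate result. *Bcl2l11* alone made up 4.57% and 3.97% in the high and 5.59% and 5.87% in the low MMP replicates. The share of *Bbc3* was also lower in both high MMP libraries, and those of *Bid* and *Bad* overlapped. Pro-survival transcripts made up 41.6% and 45.8% in high and 41.8% and 42.4% in low MMP cells, and effectors 38.5% and 34.4% against 36.1% and 36.0%. For these the high MMP replicates lay on either side of the low ones. The 12 ratios of a pro-survival to a BH3-only gene reuse the same genes, so they are not separate observations. No share over other gene pairs was computed to set beside their counts. Of the 12 ratios, 8 were higher in both high MMP libraries, 0 were lower in both and 4 overlapped, among them every ratio over *Bad*. In 6 of the 8 this follows from the single genes, whose groups did not overlap in opposite directions. An example is *Bcl2l1* over *Bcl2l11*, with 2.08 and 2.66 in high and 1.64 and 1.44 in low MMP cells. The other 2 were those of *Mcl1* over *Bcl2l11* (6.47 and 8.15 in high, 5.39 and 5.43 in low MMP cells) and *Mcl1* over *Bbc3* (15.3 and 13.1 in high, 10.5 and 12.6 in low). Here too the BH3-only gene was lower in both high MMP libraries, while *Mcl1* overlapped.

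**Figure D4:**
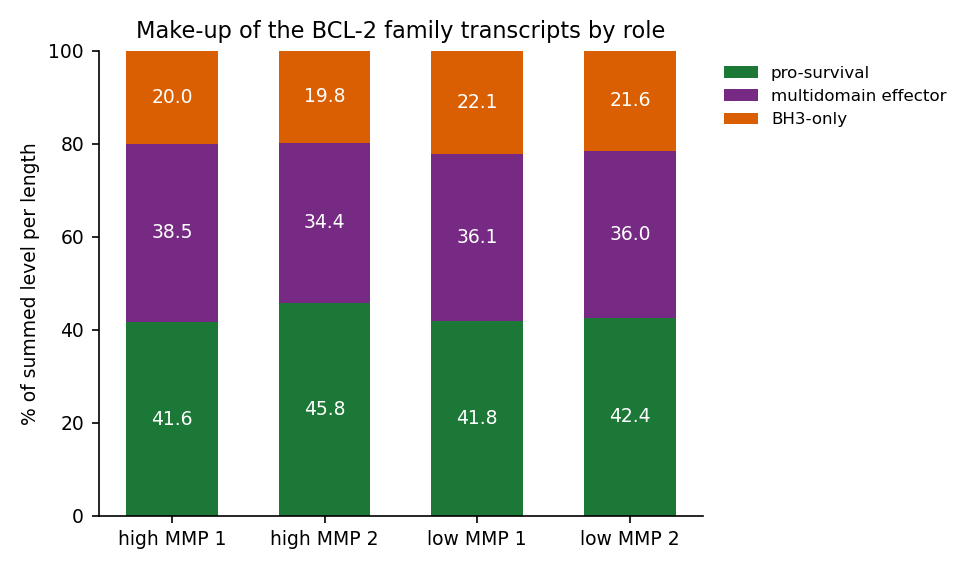
Share of the summed level per length of the 9 genes (vertical axis, %) that falls to pro-survival, effector and BH3-only genes in each library. The BH3-only share is 20.0% and 19.8% in the high MMP and 22.1% and 21.6% in the low MMP libraries.

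Other family genes were read from a list of 13, of which 9 were analysed. In limma 0 of these passed the adjusted threshold, and 1 (11.1%) had an unadjusted p under 0.05, being lower in high MMP cells, against 9.96% of all genes in either direction. Their median difference was -0.21, against -0.04 for the 9 main genes and -0.04 for all genes. The 1 gene was *Bcl2l12*, with 147 and 154 normalized reads in high and 207 and 200 in low MMP cells and a difference of -0.43 (SE 0.11, adjusted p = 0.472). The BH3-only genes *Bmf*, which responds to loss of attachment, *Hrk* and *Bik* were measured on few reads. *Bmf* had 30 and 18 reads in the high and 36 and 37 in the low MMP libraries (difference -0.76, SE 0.30, adjusted p = 0.539 in limma). *Hrk* had 15 and 17 against 26 and 19 reads (-0.58, SE 0.32), and *Bik* had 19 and 26 against 26 and 28 (-0.40, SE 0.31). Over both lists 6 of the 7 BH3-only genes analysed were below in high MMP cells without overlap of the groups, against 24.5% of all genes, with *Bad* as the exception. This grouping was made after the values were seen, and 0 of the 7 passed the adjusted threshold in limma. For *Bik*, whose nearest libraries had 26 reads each, the groups were apart only after library scaling. The effector *Bok* (-0.08, SE 0.12) and the pro-survival gene *Bcl2l2* (-0.21, SE 0.15) overlapped between groups.

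Downstream of the mitochondria, 13 genes of the apoptosome, its released factors and the caspases were analysed. Of these 0 passed the adjusted threshold in limma, 1 was lower and 0 were higher at an unadjusted p under 0.05, against 6.01% and 3.95% of all genes. The groups did not overlap for 7 of the 13 (53.8%), all with high MMP below, against 24.5% of all genes with high MMP below. Their median difference was -0.17. *Casp2*, an initiator caspase, had 691 and 690 normalized reads in high and 921 and 883 in low MMP cells, which differed by -0.38 (SE 0.08, 95% interval -0.59 to -0.17, adjusted p = 0.472). *Casp9*, the caspase of the apoptosome, differed by -0.21 (SE 0.11), and *Htra2*, a released protease, by -0.20 (SE 0.11). The inhibitors of apoptosis, which act against caspases, had a median difference of 0.10 over 5 genes. Of these, 0 had an unadjusted p under 0.05. For 2 of the 5 (40.0%), *Birc5* and *Birc3*, high MMP was above without overlap, against 13.5% of all genes. *Birc5* (survivin), which also serves in mitosis, differed by 0.28 (SE 0.12), *Birc3* by 0.34 (SE 0.18) and *Xiap* by 0.10 (SE 0.09).

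Upstream of *Bid*, 1 of the 8 death receptor pathway genes (12.5%) had an unadjusted p under 0.05, a share near the 9.96% of all genes, and the median difference was 0.07. The gene, higher in high MMP cells, was *Cflar*, which encodes the caspase-8 inhibitor c-FLIP, with 1801 and 1726 normalized reads in high and 1415 and 1519 in low MMP cells (difference 0.27, SE 0.08, adjusted p = 0.472 in limma). *Ripk1* differed by -0.20 (SE 0.10) and *Casp8*, the protease that cleaves BID, by 0.18 (SE 0.13). The 8 genes of outer membrane channels and protein turnover had a median difference of 0.05 and 0 had an unadjusted p under 0.05. They include *Vdac2*, whose channel holds BAK and BAX at the membrane (0.05, SE 0.09), *Vdac3* (0.17, SE 0.11) and *Usp9x*, which stabilizes MCL1 (0.12, SE 0.14).

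Of 8 transcription factor genes known to act on BH3-only genes, 7 were analysed, with a median difference of -0.19, and 1 of the 7 (14.3%) had an unadjusted p under 0.05, being lower, against 9.96% of all genes in either direction. *E2f1*, a driver of S-phase entry that can also induce BH3-only genes, had 764 and 647 normalized reads in high and 1101 and 1206 in low MMP cells, which differed by -0.71 (SE 0.12, adjusted p = 0.472 in limma). It passed in DESeq2 (adjusted p = 0.0185), but not in edgeR without a block (0.626) or with the replicate block as numbered (0.0511). *Trp53* differed by -0.19 (SE 0.16), with overlapping groups, and *Myc* by -0.26 (SE 0.26). Of 14 p53 target genes outside the family, 13 were analysed, of which 2 (15.4%) were lower at an unadjusted p under 0.05 and 0 were higher, against 6.01% and 3.95% of all genes. The median difference was 0.07. A difference above 0 was found for 11 of the 13 genes, beside 8359 of all 20197 genes. Whether p53 functions in 4T1 cells is not given in the sources used here and was not tested, so the list does not measure p53 activity. The 2 lower genes were *Pidd1*, whose protein activates caspase-2 (175 and 223 in high, 354 and 343 in low MMP cells, difference -0.81, SE 0.15, adjusted p = 0.472 in limma), and *Trp53inp1* (difference -0.64, SE 0.21). *Pidd1* passed in edgeR with the replicate block (adjusted p = 0.0317), but not in edgeR without it (0.668) or in DESeq2 (0.0560). *Tigar*, a regulator of glycolysis, differed by 0.32 (SE 0.12).

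**Figure D5:**
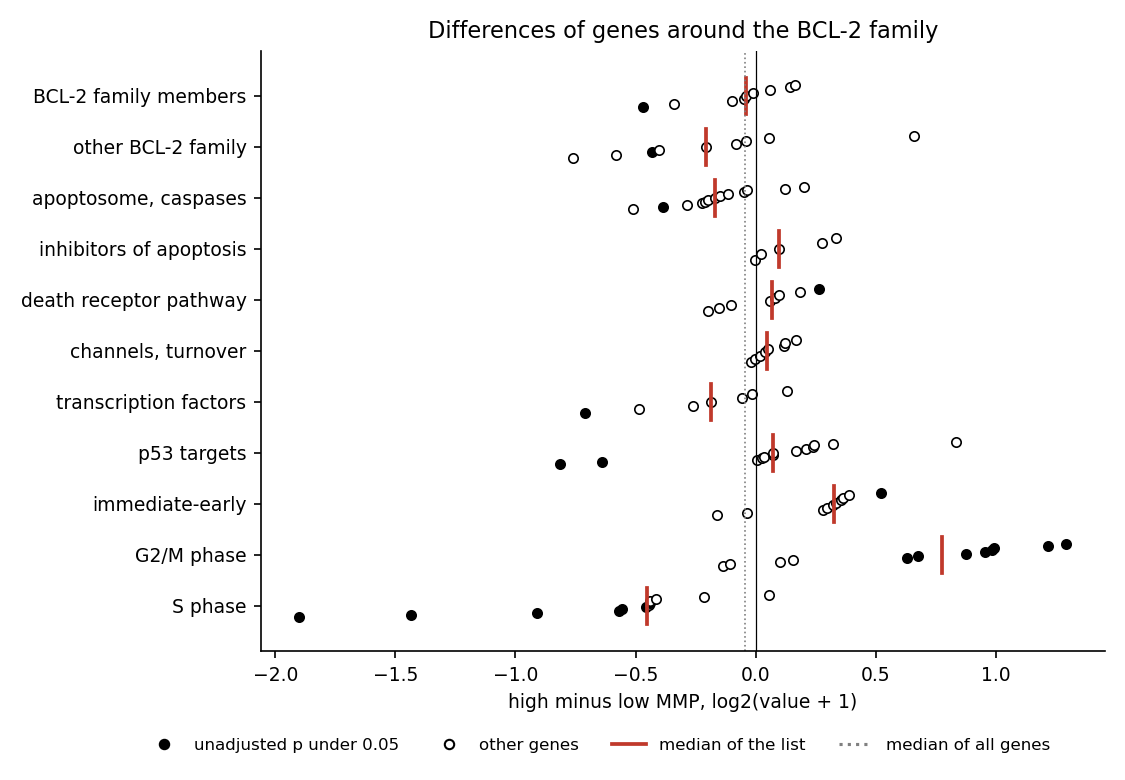
High minus low MMP difference on the log2(value + 1) scale of each gene analysed in 11 lists, with filled points for an unadjusted p under 0.05 in limma, red bars for the median of each list and a dotted line for the median of all genes. The main family centers at -0.04, G2/M-phase genes at 0.78 and S-phase genes at -0.45.

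Cell-cycle genes differed between the groups beside these results. At an unadjusted p under 0.05, 8 of 12 G2/M-phase genes were higher and 0 lower in high MMP cells (3.95% of all genes were higher), and 7 of 12 S-phase genes were lower and 0 higher (6.01% of all genes were lower). None passed the adjusted threshold in limma. The summed level of 12 G2/M-phase genes was 89856 and 96979 normalized reads in high and 58573 and 61276 in low MMP cells, and that of 12 S-phase genes was 47896 and 36097 in high and 56058 and 58039 in low. Among them *Nusap1* differed by 1.22 (SE 0.08) and *Ube2c* by 1.30 (SE 0.09), while *Ccne2* differed by -0.91 (SE 0.10) and *Cdc6* by -1.43 (SE 0.19). These 4 genes passed in DESeq2 (adjusted p from 1.53e-15 to 0.000204) and in edgeR with the replicate block (1.17e-08 to 0.00148), though not in edgeR without it. The summed level of S-phase genes and the level of *Bcl2l11* put the 4 libraries in the same order. It ran from high MMP replicate 2 (lowest) through high MMP replicate 1 and low MMP replicate 1 to low MMP replicate 2. Both measures set the groups apart, so only the order within each group was free to differ. The match is a description only, and it did not hold for the other members that were lower in both high MMP libraries. *Bbc3* had the reverse order within both groups, and *Bid* within the high MMP group. Immediate-early genes summed to 52910 and 38986 in high and 28607 and 47230 in low MMP cells, with *Egr1* at 0.52 (SE 0.17) and *Ier2* at 0.32 (SE 0.16). The part of the cell cycle and of the immediate-early genes in the family's differences was not tested.

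Over the 4 libraries, the genes averaging at least 100 normalized reads whose centered log2 values lay closest to those of *Bcl2l11* were *Tssc4* (Euclidean distance 0.037), *Csad* (0.060) and *5031425E22Rik* (0.063). *Tssc4*, the closest of 9998 genes compared, had 558 and 475 normalized reads in high and 663 and 763 in low MMP cells. With 4 libraries such likeness is a description only.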

How the data were processed

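RNA of 4 samples of sorted 4T1 cells (2 high MMP, 2 low MMP, grouped and numbered by their titles) was analysed. The authors aligned reads to the mouse transcriptome (GRCm38/mm10) with STAR and quantified them per gene, and HTSeq is also named in the submitters' processing notes. Versions, annotation release and strand setting are not given in the sources used here. The deposited values are a normalized signal per gene, scaled by the authors to the library total (sum 20000000) and kept for genes detected in at least 2 samples. Dividing by the value of 1 read (0.758 to 0.885 units) gave whole reads, within 0.01 read, for 99.998% of values. The table holds 0 columns of other samples.

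Identifiers were matched to GENCODE M21 on GRCm38 (19993 of 20197). Differences were tested as log2(value + 1), which understates the change of low genes, with limma 3.58.1 (trend on mean expression, no block) in R 4.3.3 over all genes, with Benjamini-Hochberg adjustment at 0.05. Alternatives, run on the recovered reads, were DESeq2 1.42.0 and edgeR 4.0.16. Further ones were other pseudocounts, filters, scalings, a replicate block and leaving out each sample. Fits were tested on simulated counts with known changes: each recovered the size of the changes, but at the adjusted threshold limma called fewer of them than edgeR and DESeq2 did. The members and lists were chosen with earlier results of these data known. Genes named beside the members were, per list, up to 3 of smallest p with a mean of at least 10 (2 for cell-cycle and immediate-early lists), *Trp53*, and the 3 genes closest to the member of smallest p. Other genes (*Foxo1*, *Foxo3*, *Bik*, *Bok*, *Bcl2l2*, *Fosb*, the cell type markers and genes sharing exons) were added after their values were seen. Replicates of a group differed by more than sampling noise (chi-square of 43.2 and 9.08 per gene).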

Additional observations from a re-analysis of the deposited data

How the results depend on the processing

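In all alternatives but 1, none of the 9 genes passed the adjusted threshold, and *Bcl2*, *Bcl2l1*, *Bid*, *Bcl2l11* and *Bbc3* kept their direction in all alternatives. Over all genes the count of calls was 0 in limma and in edgeR without a block, 106 in edgeR with the replicate block and 118 in DESeq2. Same-numbered samples deviated in opposite directions (r = -0.421 across 12902 genes), so the numbers are not taken to pair the samples. With crossed numbers as the block, chosen after seeing the data, edgeR called 733 genes including 1 of the family, *Bcl2l11* (-0.43), and limma called 0. The cause was not tested. Among the other named genes, the replicate block as numbered in edgeR changed the adjusted call of *Pidd1* and the 4 cell-cycle genes, and of no other. *Birc3* was among the genes that edgeR called with the crossed block (0.38, adjusted p = 0.0397). *Bax* changed sign to 0.033 with median-of-ratios rescaling, 0.022 with quantile normalization, 0.031 in DESeq2 and in edgeR with relative log expression, 0.027 in unblocked edgeR, and in blocked edgeR 0.029 with the replicate block as numbered and 0.028 as crossed. *Bak1* changed sign to 0.0013 with rescaling, 0.0071 in edgeR and 0.012 with relative log expression and in DESeq2. Leaving out 1 sample each, with the lone sample of its group assumed to vary like the others, moved *Bcl2l11* from -0.61 to -0.33, *Bbc3* from -0.48 to -0.21, *Mcl1* from -0.15 to 0.053, *Bax* from -0.088 to 0.070, *Bak1* from -0.21 to 0.13, *Bad* from -0.12 to 0.24, *Usp9x* from -0.0041 to 0.25 and *Vdac2* from -0.0011 to 0.11. The median of the 9 genes then ran from -0.088 to 0.053, that of other family genes from -0.38 to -0.17, of the apoptosome list from -0.18 to -0.093, of the death receptor list from 0.0070 to 0.16 and of p53 targets from 0.021 to 0.11. The other family genes had a median of -0.30 with a mean of at least 10 and -0.15 with quantile normalization, the apoptosome list -0.13 and p53 targets 0.11 with both scalings. Leaving out a high MMP sample changed the rank of 4 genes in the order of levels, and 0 with a low MMP sample left out. The BH3-only share of the family ran from 20.5% to 21.2% (mean 20.9%) on leaving out a sample, and with the longest transcript as the length it was 25.2% and that of effectors 33.8%. With 2 samples per group, differences near those of *Bcl2* and *Bcl2l1* were not resolved from replicate spread.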
